A study of Mus musculus with 24 samples.

Results

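Matrix metalloproteinases were followed by their 8 genes Mmp2, Mmp7, Mmp8, Mmp9, Mmp12, Mmp13, Mmp14 and Mmp23, which were taken by symbol from the 18820 gene symbols measured on 24 mouse liver arrays. Each was read by 1 probe set, the only one that carried its symbol alone. All mice were male, on a C57/BL6 background, and fell into 8 groups of 3 arrays. Control animals carried floxed Jnk1 alleles without Cre (JNK1f/f) and were examined after sham surgery, in which the abdomen was opened and closed, or after bile duct ligation (BDL), which stops bile flow and leads to cholestatic injury, bile duct growth and scarring. JNK1-/- mice lacked the kinase in all cells and came from a commercial breeder, not from the floxed line. JNK1Δhepa mice were JNK1f/f animals with Cre driven by the albumin promoter, which removes the gene from hepatocytes and leaves it in the other liver cells. Both mutants were examined after ligation alone, so no sham-operated mutant liver was compared. Livers were collected 48 h after surgery from mice labelled 8 weeks old or 28 d after surgery from mice labelled 12 weeks old, so that time after surgery and age cannot be told apart.

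Matrix metalloproteinases are zinc-dependent endopeptidases that cut collagens, elastin, basement membrane proteins and many cell surface and soluble proteins. Most are secreted as inactive proenzymes that are opened by plasmin, by furin-like proteases or by one another, and they are held in check by the tissue inhibitors of metalloproteinases (TIMPs). In injured liver they are made by stellate cells, bile duct cells, macrophages and neutrophils more than by hepatocytes, and they take part both in the laying down of scar and in its removal. Transcription of many of them is driven by AP-1, the dimer of Jun and Fos proteins, and Jun is the substrate after which Jun N-terminal kinase (JNK) is named.

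Because Jun is phosphorylated by the deleted kinase, the stretches just before the gene starts were searched for the AP-1 letters TGANTCA, which read the same on both strands. RefSeq promoter windows of assembly GRCm38.p6 were at hand for 6 of the 8 genes, in 9 windows because some genes have more than 1 start. Within the 250 bases before a start, Mmp7, Mmp12 and Mmp13 had a match, each in 1 of the 9 windows. Over all genes 2217 of 32851 windows had a match (6.75%), and a gene with more windows has more chances of a match. The first 100 bases before the start are shown for the 2 genes with a match at their first start and for a pair without one, Mmp8 and Mmp14, and 30 bases around the match for Mmp12, whose match lay before an alternative start inside the gene. All are on the plus strand of GRCm38.p6, written 5′ to 3′, with the AP-1 letters in capitals.
Mmp7, chr9:7691990-7692089: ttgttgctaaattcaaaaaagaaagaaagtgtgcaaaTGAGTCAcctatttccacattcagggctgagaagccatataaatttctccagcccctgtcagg
Mmp13, chr9:7272414-7272513: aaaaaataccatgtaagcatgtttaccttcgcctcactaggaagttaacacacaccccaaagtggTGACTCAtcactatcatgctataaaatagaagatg
Mmp12, chr9:7347319-7347348: gacatcaacagTGAGTCAgatagaggattt
Mmp8, chr9:7558329-7558428: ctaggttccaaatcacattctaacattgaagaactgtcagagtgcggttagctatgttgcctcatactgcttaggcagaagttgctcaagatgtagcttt
Mmp14, chr14:54431498-54431597: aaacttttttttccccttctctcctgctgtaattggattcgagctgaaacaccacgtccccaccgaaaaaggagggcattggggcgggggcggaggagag
The match began 63 bases before the start in Mmp7, 44 in Mmp12 and 35 in Mmp13. Their log2 differences between ligated and sham-operated control liver were 0.86, 2.78 and 0.43 at 48 h and 3.71, 2.64 and -0.01 at 28 d, and the genes were not tested against one another.

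The values are log2 intensities, so a difference of 1 is a doubling, and each gene was compared with itself across groups because intensities of different probe sets are not on a common scale. Tests were made with limma over all 18820 symbols, and a gene is said to have risen or fallen where its adjusted p was under 0.05. The labels do not say how the 3 samples of a group relate, so p-values measure only the spread between these samples. Mapk8, the gene of JNK1, lay between 5.18 and 6.17 on the 6 JNK1-/- arrays and between 7.37 and 7.67 in ligated control liver. It read 6.67 to 6.93 on the arrays labelled control sham 48 h, as low as the 6.76 to 6.81 of JNK1Δhepa at 48 h, and 7.67 on the array labelled JNK1Δhepa BDL 28 d replicate 1, which is the control level. Whether its probes lie in the deleted part of the gene is not given in the sources used here. The members' calls that rest on those arrays are given with and without them, as are the JNK1Δhepa differences from ligated control at 28 d. The 28 d sham arrays stand in for those of 48 h. The array labelled JNK1Δhepa BDL 48 h replicate 3 stood apart in another way, with a mean of 6.82 over 4 exocrine pancreas markers against 4.39 and 4.50 on the other two of its group. All 8 hepatocyte markers lay above the array median on every array.

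Ligation raised some of the 8 chosen transcripts in control liver, 3 at 48 h and 6 at 28 d, and lowered none. These 8 were picked with results of these arrays known, so setting them beside all genes describes them and does not test the family. The remaining family members are given further below. Mmp14, the membrane enzyme that activates other proteinases, Mmp9, a gelatinase, and Mmp12, the macrophage elastase, were higher at both times, and Mmp7, Mmp8 and Mmp23 at 28 d. Over all genes 5.61% were called higher at 48 h and 11.7% at 28 d. The median log2 difference of the 8 genes was 0.959 at 48 h and 1.29 at 28 d, against -0.0288 and -0.0275 over all genes. In 5 genes at 48 h every ligated array lay above every sham array, as it did for 16.5% of all genes, and in 1, Mmp2, every ligated array lay below, as for 16.4%. At 28 d the ligated arrays lay above the sham arrays in 7 genes, against 15.1% of all genes, and below in none. When each array was centred on its own median, the median difference of all genes moved by -0.17 at 48 h and by -0.199 at 28 d, and the calls over all genes shifted from 1055 up and 720 down to 689 and 2578 at 48 h and from 2199 and 2161 to 1212 and 5695 at 28 d. The same members passed in the same direction under that centring. With the 28 d sham arrays as the base, the same 3 members rose at 48 h, Mmp14 by 0.86 (adjusted p = 0.00232), Mmp9 by 1.82 (adjusted p = 0.00043) and Mmp12 by 3.04 (adjusted p = 0.00114), and Mmp8 passed as well (1.63, adjusted p = 0.0119). Mmp7 (0.55), Mmp13 (0.24), Mmp2 (-0.55) and Mmp23 (0.01) did not pass on that base either.

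**Figure D1:**
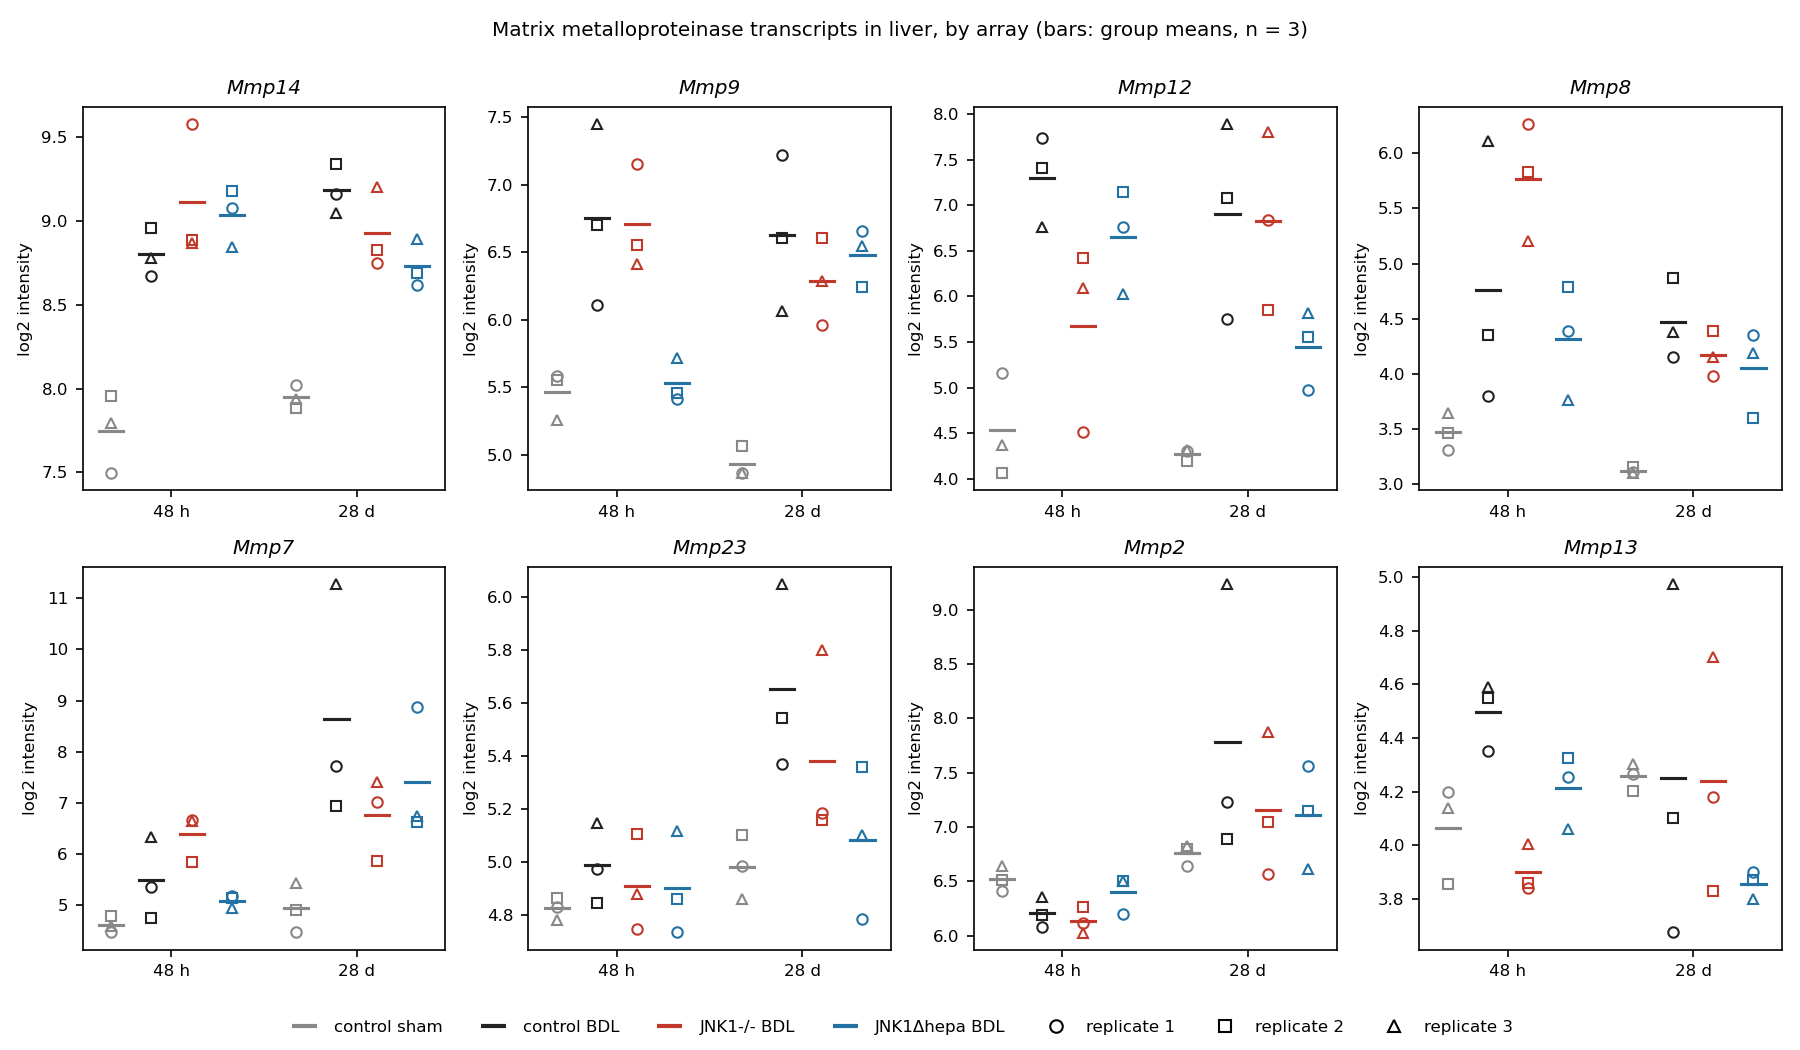
Log2 intensity of each of the 8 genes (vertical axes, one scale per gene) on each of 24 arrays, grouped by time after surgery; colours mark the 4 groups at each time, symbols the replicate number and bars the group means of 3 arrays. Mmp14, Mmp9 and Mmp12 lie higher in ligated than in sham control liver at both times, and the control BDL 28 d replicate 3 array stands highest of all 24 for Mmp7 (11.27), Mmp2 (9.24), Mmp12 (7.89), Mmp13 (4.97) and Mmp23 (6.05).

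Mmp14 encodes a membrane-anchored collagenase that also activates the proenzyme of Mmp2 at the cell surface. In control liver at 48 h it read 7.50, 7.95 and 7.80 after sham surgery and 8.67, 8.96 and 8.78 after ligation. At 28 d it read 8.02, 7.89 and 7.94 after sham surgery and 9.16, 9.34 and 9.05 after ligation. The groups did not overlap at either time, and within each group the arrays lay close together. The log2 difference was 1.06 (SE 0.17, adjusted p = 0.000519) at 48 h and 1.24 (SE 0.17, adjusted p = 2.78e-05) at 28 d, a 2.08-fold and a 2.35-fold rise. Of the 8 genes it had the lowest adjusted p in both comparisons.

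Mmp23 encodes a small membrane-bound member of the family that lacks the hemopexin domain of its relatives. At 48 h it read 4.83, 4.86 and 4.78 in sham-operated and 4.97, 4.84 and 5.15 in ligated control liver. The 28 d sham arrays read 4.98, 5.10 and 4.86 and the ligated arrays 5.37, 5.54 and 6.05. The groups overlapped at 48 h and were separate at 28 d. The difference at 28 d was 0.67 (SE 0.18, adjusted p = 0.011), against 0.16 (SE 0.18, adjusted p = 0.655) at 48 h. That call did not hold without the control BDL 28 d replicate 3 array (0.47, adjusted p = 0.0697) or when the variance was taken from the compared groups alone (adjusted p = 0.0712).

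The gelatinases Mmp2 and Mmp9 cut denatured collagen and the type IV collagen of basement membranes. Mmp9, the form stored by neutrophils and induced in macrophages, read 5.58, 5.55 and 5.26 at 48 h after sham surgery and 6.11, 6.70 and 7.45 after ligation. At 28 d the sham arrays read 4.87, 5.06 and 4.87 and the ligated arrays 7.22, 6.60 and 6.06. Every ligated array lay above every sham array at both times. The difference was 1.29 (SE 0.29, adjusted p = 0.00646) at 48 h and 1.70 (SE 0.29, adjusted p = 0.000235) at 28 d. Sham arrays were lower at 28 d than at 48 h without overlap (-0.53, adjusted p = 0.732).

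Mmp2 is the gelatinase of stellate cells and fibroblasts. At 48 h it read 6.41, 6.52 and 6.64 after sham surgery and 6.08, 6.19 and 6.36 after ligation, which places all ligated arrays below all sham arrays. At 28 d it read 6.64, 6.80 and 6.83 after sham surgery and 7.23, 6.89 and 9.24 after ligation, which places them above. Neither difference passed the test, at -0.31 (SE 0.40, adjusted p = 0.708) and 1.03 (SE 0.40, adjusted p = 0.0735). The difference at 28 d rested largely on control BDL 28 d replicate 3: it was 0.30 without that array and passed when replicate 1 (1.30, adjusted p = 0.0399) or replicate 2 (1.48, adjusted p = 0.0119) of the same group was left out.

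Mmp8 and Mmp13 are collagenases, able to cut native fibrillar collagen. Mmp8, the collagenase of neutrophil granules, read 3.32, 3.46 and 3.65 in sham-operated and 3.80, 4.36 and 6.12 in ligated control liver at 48 h. At 28 d it read 3.11, 3.16 and 3.11 after sham surgery and 4.15, 4.87 and 4.38 after ligation. The groups were separate at both times, although 1 of the 3 ligated arrays at 48 h stood far above the other two. The difference was 1.28 (SE 0.41, adjusted p = 0.0524) at 48 h, which just missed the threshold, and 1.34 (SE 0.41, adjusted p = 0.0208) at 28 d. At 48 h it was 0.60 without control BDL 48 h replicate 3, and passed without replicate 1 (1.76, adjusted p = 0.00905) or with the 28 d sham arrays as the base, as given above. The call at 28 d was lost without control BDL 28 d replicate 2 (1.14, adjusted p = 0.0789) or control sham 28 d replicate 1 (1.33, adjusted p = 0.0549) or 3 (1.33, adjusted p = 0.0555).

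Mmp13 is the main interstitial collagenase of rodents. It read 4.20, 3.86 and 4.14 after sham surgery and 4.35, 4.55 and 4.59 after ligation at 48 h, without overlap. At 28 d the sham arrays read 4.26, 4.20 and 4.30 and the ligated arrays 3.67, 4.10 and 4.97, on both sides of the sham arrays. The difference was 0.43 (SE 0.23, adjusted p = 0.266; 95% interval -0.04 to 0.91) at 48 h and -0.01 (SE 0.23, adjusted p = 0.988; interval -0.48 to 0.47) at 28 d. When only the groups compared entered the fit, the 48 h difference passed (adjusted p = 0.0442). Mmp8, Mmp13 and Mmp23 lay under the median of all genes (5.81) in every group's mean.

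Mmp12, the elastase of macrophages, read 5.16, 4.06 and 4.37 after sham surgery and 7.74, 7.41 and 6.77 after ligation at 48 h. The 28 d sham arrays read 4.30, 4.19 and 4.32 and the ligated arrays 5.75, 7.08 and 7.89. The groups did not overlap, and the 3 ligated arrays at 28 d differed widely among themselves. The difference was 2.78 (SE 0.54, adjusted p = 0.00263) at 48 h and 2.64 (SE 0.54, adjusted p = 0.00135) at 28 d, or 6.85-fold and 6.23-fold. No array left out, nor any other setting tried, ended either call.

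Mmp7, or matrilysin, is a small enzyme of epithelial cells, bile duct epithelium included. It read 4.47, 4.79 and 4.60 after sham surgery and 5.36, 4.76 and 6.33 after ligation at 48 h, with overlap. At 28 d it read 4.47, 4.91 and 5.43 after sham surgery and 7.73, 6.94 and 11.27 after ligation, with no overlap and with a single array far above the rest. The difference was 0.86 (SE 0.77, adjusted p = 0.558) at 48 h and 3.71 (SE 0.77, adjusted p = 0.00152) at 28 d, the largest of the 8 genes and equal to 13.1-fold. Without control BDL 28 d replicate 3 the difference was 2.40 and still passed. It missed the threshold when the variance came from the compared groups alone (adjusted p = 0.0737), where the wide spread of those 3 ligated arrays is not averaged with the other groups.

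**Figure D2:**
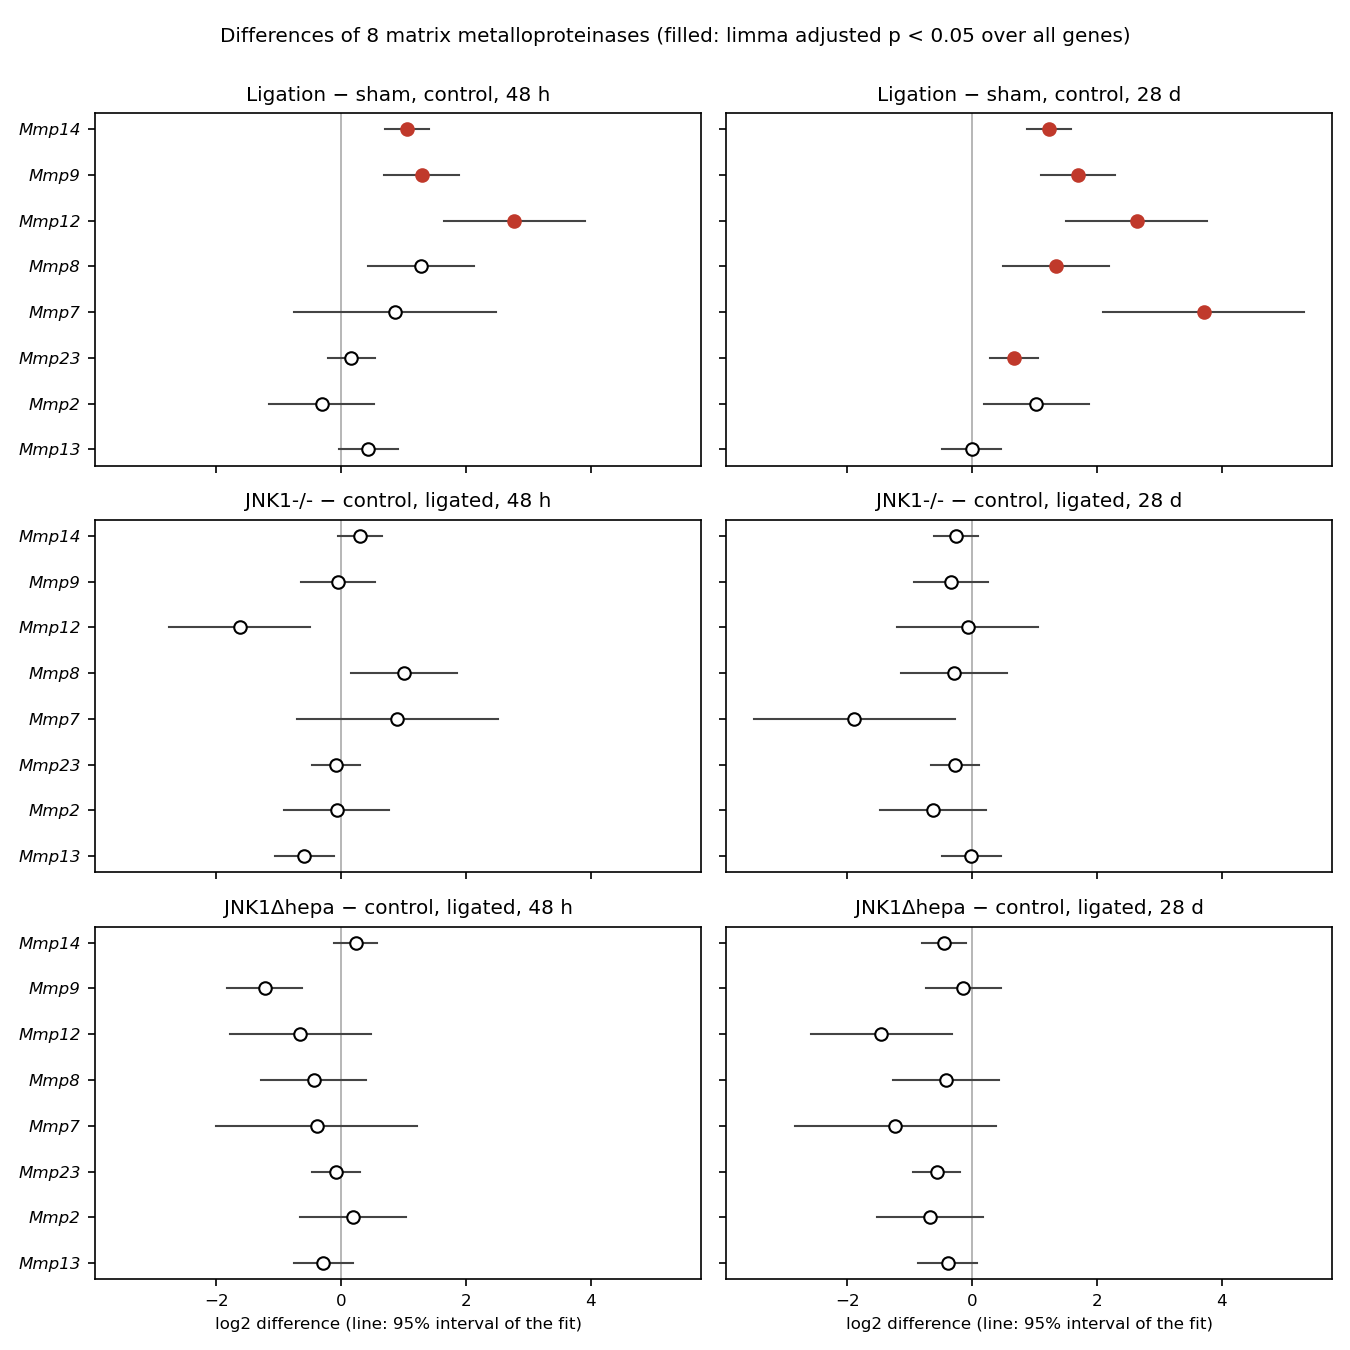
Log2 difference of each gene (horizontal axis) in control liver after ligation against sham (top), in ligated JNK1-/- against ligated control liver (middle) and in ligated JNK1Δhepa against ligated control liver (bottom), at 48 h (left) and 28 d (right); lines are 95% intervals of the fit over 24 arrays and filled points have a limma adjusted p under 0.05. There are 3 filled points for ligation at 48 h, 6 at 28 d and none in the mutant panels, and at 28 d all 8 points of each mutant lie below 0, except that Mmp13 in JNK1-/- liver turns positive with centring or quantile normalization.

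The ligation response was then compared between the times. The change of the ligation difference from 48 h to 28 d was called in 0 of the 8 genes by limma (2 at an unadjusted p under 0.05, lowest adjusted p 0.223), against 1.3% of all genes. It was largest in Mmp7 (2.85, SE 1.09, adjusted p = 0.223) and Mmp2 (1.34, SE 0.57, adjusted p = 0.275), and near 0 in Mmp8 (0.06, SE 0.57) and Mmp12 (-0.14, SE 0.77). That Mmp7, Mmp8 and Mmp23 passed at 28 d and not at 48 h is therefore not shown to be a difference between the times. Sham arrays of both times differed in 0 of the 8 genes by limma (0 at an unadjusted p under 0.05), against 0.133% of all genes. At 28 d Mmp9 (-0.53) and Mmp8 (-0.35) were lower without overlap, and Mmp2 (0.24) and Mmp13 (0.19) higher. The share of all genes standing apart in this comparison is not given here, so no difference is read from them. With the 28 d sham arrays as the base for both times, which sets aside the arrays labelled control sham 48 h, the change with time passed in 3 genes: Mmp7 (3.17, adjusted p = 0.0139), Mmp2 (1.58, adjusted p = 0.0182) and Mmp23 (0.67, adjusted p = 0.0255). That setting leaves fewer terms in the contrast and takes sham liver as unchanged over the weeks between. The 1.3% of all genes belongs to the contrast with both sham groups, and no share is given here for this setting.

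Loss of JNK1 in all cells changed 0 of the 8 genes by limma, at either time, when ligated mutant liver was compared with ligated control liver. At an unadjusted p under 0.05 there were 3 at 48 h and 1 at 28 d, and over all genes 2.3% and 0.627% were called. At 48 h, 3 of the 8 differences lay above 0 and 5 below, but Mmp2 (-0.07), Mmp9 (-0.05) and Mmp23 (-0.08) were near 0 and changed sign when arrays were centred on their medians. At 28 d all 8 lay below 0, or 7 with centring or quantile normalization, where Mmp13 turned positive. Their median was -0.282 against -0.00564 over all genes. The 8 differences share the same 3 control arrays, and without control BDL 28 d replicate 3 only 5 of the 8 lay below 0.

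Mmp12 gave the lowest adjusted p of the 8 at 48 h. The JNK1-/- arrays read 4.51, 6.42 and 6.10, all below the control range of 6.77 to 7.74. The difference was -1.63 (SE 0.54, adjusted p = 0.129), and it was -1.05 without the lowest of the 3, JNK1-/- BDL 48 h replicate 1. Mmp13 was also lower without overlap, at 3.84, 3.86 and 4.004 against 4.35 to 4.59 (-0.59, SE 0.23, adjusted p = 0.193). For 2 of 8 genes to lie below the control arrays compares with 10.6% of all genes. Mmp8 went the other way, at 6.26, 5.83 and 5.21, and overlapped the control range of 3.80 to 6.12. Its difference of 1.01 (SE 0.41, adjusted p = 0.221) passed when control BDL 48 h replicate 3 was left out (1.69, adjusted p = 0.00816).

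Of the other genes at 48 h, Mmp14 read 9.58, 8.89 and 8.87 in JNK1-/- liver (0.31, SE 0.17, adjusted p = 0.41), and Mmp7 read 6.67, 5.85 and 6.64 (0.90, SE 0.77, adjusted p = 0.658). Mmp9 read 7.15, 6.56 and 6.41 (-0.05, SE 0.29), Mmp2 6.12, 6.27 and 6.03 (-0.07, SE 0.40) and Mmp23 4.75, 5.10 and 4.88 (-0.08, SE 0.18). All 5 overlapped the ligated control arrays.

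At 28 d the JNK1-/- arrays overlapped the ligated control arrays in all 8 genes. Mmp7 differed most, at 7.01, 5.87 and 7.41 against 6.94 to 11.27 (-1.89, SE 0.77, adjusted p = 0.311), and was -0.57 without control BDL 28 d replicate 3. Mmp2 read 6.57, 7.04 and 7.87 (-0.63, SE 0.40, adjusted p = 0.568). Mmp14 read 8.75, 8.83 and 9.20 (-0.26, SE 0.17, adjusted p = 0.572). These differences were within what the 3 control arrays span. Mmp9, at 5.96, 6.60 and 6.29, Mmp8, at 3.98, 4.39 and 4.16, and Mmp23, at 5.19, 5.16 and 5.80, had differences of -0.34, -0.29 and -0.27. Mmp12 read 6.84, 5.85 and 7.81 and Mmp13 4.18, 3.83 and 4.70, with differences of -0.07 (95% interval -1.20 to 1.06) and -0.01 (interval -0.49 to 0.46). The change of the mutant difference from 48 h to 28 d passed in 0 of 8 genes by limma (3 at an unadjusted p under 0.05, lowest adjusted p 0.227), against 0.744% of all genes.

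Loss of JNK1 in hepatocytes changed 0 of the 8 genes by limma at 48 h (1 at an unadjusted p under 0.05), in a comparison that called 0% of all genes. The gene with an unadjusted p under 0.05 was Mmp9. Its JNK1Δhepa arrays read 5.41, 5.45 and 5.72, within or just above the 48 h sham range of 5.26 to 5.58, above the 28 d sham range of 4.87 to 5.06 and below all ligated control arrays (6.11 to 7.45). The difference was -1.23 (SE 0.29, limma adjusted p = 1), and -1.32 without JNK1Δhepa BDL 48 h replicate 3. Mmp13, at 4.25, 4.33 and 4.06, also lay below its control arrays (-0.28, SE 0.23), so that 2 of the 8 genes did, as did 6.09% of all genes. The other 6 overlapped: Mmp12 read 6.77, 7.15 and 6.03 (-0.66, SE 0.54), Mmp8 4.39, 4.79 and 3.76 (-0.44, SE 0.41), Mmp7 5.18, 5.14 and 4.94 (-0.39, SE 0.77), Mmp14 9.08, 9.18 and 8.85 (0.23, SE 0.17), Mmp2 6.20, 6.50 and 6.50 (0.19, SE 0.40) and Mmp23 4.73, 4.86 and 5.12 (-0.09, SE 0.18).

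At 28 d the JNK1Δhepa difference again passed in 0 of the 8 genes by limma (3 at an unadjusted p under 0.05, lowest adjusted p 0.157), against 0.228% of all genes. All 8 differences lay below 0, also with centring and quantile normalization, with a median of -0.511 against 0.0105 over all genes. They share their control arrays with the JNK1-/- differences of that time, and without control BDL 28 d replicate 3, 6 of the 8 lay below 0. Mmp23 (4.79, 5.36 and 5.10, difference -0.57, SE 0.18, adjusted p = 0.157) and Mmp14 (8.62, 8.69 and 8.89, difference -0.45, SE 0.17, adjusted p = 0.214) lay below all ligated control arrays, as did 6.14% of all genes. Mmp12 read 4.97, 5.56 and 5.82, with 1 of these above the lowest control array (-1.46, SE 0.54, adjusted p = 0.213). Leaving out control BDL 28 d replicate 1, the control array with the lowest Mmp12, gave 3 calls: Mmp12 (-2.04, adjusted p = 0.0235), Mmp13 (-0.68, adjusted p = 0.0458) and Mmp23 (-0.71, adjusted p = 0.0265). The 0.228% of all genes belongs to the fit with that array in, and no share is given here without it. Without the array labelled JNK1Δhepa BDL 28 d replicate 1, which read Mapk8 at the control level, 0 of the 8 passed and all 8 differences stayed below 0. Mmp7 was then at -1.965, Mmp12 at -1.22, Mmp2 at -0.91 and Mmp8 at -0.57. Mmp23 was at -0.42, Mmp13 at -0.41, Mmp14 at -0.39 and Mmp9 at -0.23.

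The remaining genes at 28 d overlapped the ligated control arrays. Mmp7 read 8.88, 6.63 and 6.74 in JNK1Δhepa liver (-1.23, SE 0.77) and Mmp2 7.56, 7.14 and 6.62 (-0.68, SE 0.40). Mmp8 read 4.36, 3.60 and 4.19 (-0.42, SE 0.41), Mmp13 3.90, 3.87 and 3.80 (-0.39, SE 0.23) and Mmp9 6.66, 6.25 and 6.54 (-0.14, SE 0.29). Mmp9 lay apart from ligated control liver at 48 h and overlapped it at 28 d, but the change between the times was not called (1.08, SE 0.40, adjusted p = 0.637). It was 0.99 without the array labelled JNK1Δhepa BDL 28 d replicate 1. Over the 8 genes that change passed in 0 by limma (2 at an unadjusted p under 0.05), as in 0% of all genes.

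Both mutants were then set against each other. The difference itself contains no control array, but its SE and p come from the fit over all 24 arrays, controls included. At 48 h Mmp9 was higher in JNK1-/- than in JNK1Δhepa liver, at 7.15, 6.56 and 6.41 against 5.41, 5.45 and 5.72 without overlap. The difference was 1.18 (SE 0.29, adjusted p = 0.032), or 2.26-fold, and Mmp9 was the only 1 of the 8 genes called, against 2.44% of all genes. The call did not hold with any 1 of JNK1-/- BDL 48 h replicates 1 (0.95, adjusted p = 0.146) or 2 (1.25, adjusted p = 0.0599) or JNK1Δhepa BDL 48 h replicates 1 (1.12, adjusted p = 0.099), 2 (1.14, adjusted p = 0.103) or 3 (1.27, adjusted p = 0.0783) left out, nor with the compared groups alone (adjusted p = 0.0576). Mmp8, the other gene of neutrophil granules, was also higher without overlap (1.45, SE 0.41, adjusted p = 0.0632), as was Mmp7 (1.30, SE 0.77, adjusted p = 0.454), and Mmp13 was lower (-0.31, SE 0.23, adjusted p = 0.572). Groups stood apart upwards in 3 of the 8 genes and downwards in 1, against 12.1% and 10.1% of all genes. At 28 d limma called 0 of the 8 (1 at an unadjusted p under 0.05, Mmp12 at 1.38, SE 0.54, adjusted p = 0.193), against 0.962% of all genes, and in Mmp12 alone every JNK1-/- array lay above every JNK1Δhepa array, as for 13.2% of all genes. The Mmp12 difference was 1.14 without the array labelled JNK1Δhepa BDL 28 d replicate 1.

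Set against sham-operated control liver, ligated mutant liver showed which members still rose. These comparisons mix genotype with ligation and use the same sham arrays as the control comparison. In JNK1-/- liver at 48 h, 3 rose, against 6.22% of all genes: Mmp14 (1.36, SE 0.17, adjusted p = 3.64e-05), Mmp8 (2.29, SE 0.41, adjusted p = 0.000931) and Mmp9 (1.24, SE 0.29, adjusted p = 0.0067). Mmp12 was at 1.15 (SE 0.54, adjusted p = 0.199) there and passed without JNK1-/- BDL 48 h replicate 1 (1.73, adjusted p = 0.0438). Mmp7, with every array above sham, was at 1.77 (SE 0.77) and passed with the compared groups alone (adjusted p = 0.00472) and with the replicate number as a block (adjusted p = 0.0142). On the 28 d sham base the same 3 rose, Mmp14 by 1.16, Mmp8 by 2.64 and Mmp9 by 1.78, and Mmp12 (1.41, adjusted p = 0.0915), Mmp7 (1.45), Mmp2 (-0.62), Mmp13 (-0.36) and Mmp23 (-0.07) did not pass. At 28 d, 3 rose, against 7.19% of all genes: Mmp12 (2.57, SE 0.54, adjusted p = 0.00295), Mmp14 (0.98, SE 0.17, adjusted p = 5e-04) and Mmp9 (1.35, SE 0.29, adjusted p = 0.00299). With the compared groups alone Mmp7 (1.83, adjusted p = 0.0206) and Mmp8 (1.05, adjusted p = 0.00117) passed too. Mmp14 and Mmp9 thus rose in JNK1-/- liver at both times.

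In JNK1Δhepa liver at 48 h, 2 members rose, against 4.36% of all genes: Mmp14 (1.29, SE 0.17, adjusted p = 0.00011) and Mmp12 (2.12, SE 0.54, adjusted p = 0.0185). The Mmp12 call was lost without JNK1Δhepa BDL 48 h replicate 1 (adjusted p = 0.0697) or 2 (adjusted p = 0.0943) or without control sham 48 h replicate 2 (adjusted p = 0.0818) or 3 (adjusted p = 0.0641). Mmp9 was at 0.07 (SE 0.29, 95% interval -0.53 to 0.66) against the sham arrays of 48 h and at 0.60 (SE 0.29, adjusted p = 0.2) against those of 28 d, above all of which its 3 arrays lay. On the 28 d base Mmp14 (1.09, adjusted p = 0.000409) and Mmp12 (2.38, adjusted p = 0.00723) passed again, and Mmp8 (1.19, adjusted p = 0.0664), Mmp7 (0.15), Mmp13 (-0.04), Mmp23 (-0.08) and Mmp2 (-0.36) did not. Against the 48 h arrays, Mmp7 (0.47, adjusted p = 0.0263) and Mmp8 (0.84, adjusted p = 0.0395) passed with the compared groups alone. At 28 d, 3 rose, against 11.1% of all genes: Mmp9 (1.55, SE 0.29, adjusted p = 6e-04), Mmp14 (0.78, SE 0.17, adjusted p = 0.00211) and Mmp7 (2.48, SE 0.77, adjusted p = 0.0262). Without the array labelled JNK1Δhepa BDL 28 d replicate 1, Mmp9 (1.46, adjusted p = 0.00501) and Mmp14 (0.84, adjusted p = 0.00557) still passed. The call of Mmp7 was lost without that array (1.75, adjusted p = 0.164), without control sham 28 d replicate 1 (2.25, adjusted p = 0.0903) and without control sham 28 d replicate 2 (2.47, adjusted p = 0.0643). With the compared groups alone Mmp12 (1.18, adjusted p = 0.00322) and Mmp8 (0.93, adjusted p = 0.00669) passed as rises and Mmp13 (-0.40, adjusted p = 0.00925) as a fall. Of the 8 genes, Mmp14 alone passed in all 6 comparisons of ligated with sham-operated liver.

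Levels over the 8 groups ranked differently from gene to gene. Mmp14, Mmp9, Mmp12, Mmp7 and Mmp8 were lowest in the pair of sham groups. Arrays of that pair overlapped each other for Mmp14, Mmp12 and Mmp7 and not for Mmp9 and Mmp8. For Mmp14 no ligated group overlapped a sham group, and neighbours in the order of the 6 ligated groups overlapped throughout, from JNK1Δhepa at 28 d (mean 8.73 ± 0.14, SD, n = 3) up to control at 28 d (9.18 ± 0.15, SD, n = 3). For Mmp9, JNK1Δhepa at 48 h (5.53 ± 0.16, SD, n = 3) overlapped the sham arrays of 48 h (5.46 ± 0.18, SD, n = 3) and did not overlap the next group up, JNK1-/- at 28 d (6.28 ± 0.32, SD, n = 3). For Mmp8 the highest group was JNK1-/- at 48 h (5.77 ± 0.53, SD, n = 3). Mmp2 was lowest in the 4 groups of 48 h and highest in the 3 ligated groups of 28 d, which overlapped one another.

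Marker genes of liver cell types were set beside these enzymes, and their counts stand against the 5.61% and 11.7% of all genes called higher at 48 h and 28 d. The mean of 12 measured neutrophil markers, such as S100a8 and Ly6g, lay at 4.99 to 5.31 in sham-operated control liver at 48 h and 5.45 to 6.68 after ligation, and 6 of the 12 rose. At 28 d it lay at 4.55 to 4.69 and 5.66 to 6.22, and 7 of the 12 rose. On the 3 ligated control arrays of 48 h the neutrophil mean was 5.45, 5.85 and 6.68, in the same order as Mmp8 (3.80, 4.36 and 6.12) and Mmp9 (6.11, 6.70 and 7.45). At 28 d it was 5.66, 5.87 and 6.22, and Mmp9 ran in the opposite order (7.22, 6.60 and 6.06). Mmp8 (4.15, 4.87 and 4.38) did not run in the order of the neutrophil mean there either. In JNK1-/- liver at 48 h the neutrophil mean lay at 5.95 to 6.71 and in JNK1Δhepa liver at 5.45 to 5.56, without overlap. In that comparison, in which Mmp9 was called, 1 of the 12 markers rose, against 2.44% of all genes called in either direction. In bulk RNA, fewer cells of a type and less RNA per cell cannot be told apart, and the part of neutrophils in the differences of Mmp8 and Mmp9 was not tested.

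The 12 measured markers of monocytes and macrophages, such as Adgre1 and Cd68, rose in 8 cases at each time. Their mean went from 6.64 to 6.67 in sham-operated liver to 7.74 to 7.84 in ligated control liver at 48 h, and from 6.31 to 6.47 to a range of 7.63 to 8.42 at 28 d. The lowest of these 28 d arrays, replicate 1 at 7.63, was also the one with the lowest Mmp12 (5.75). In JNK1Δhepa liver at 28 d, where Mmp12 was at 4.97 to 5.82, the marker mean was 7.39 to 7.54, below all ligated control arrays. In JNK1-/- liver at 48 h, where Mmp12 was also below control, it was 7.58 to 8.09, on both sides of the control arrays. Of 8 markers of Kupffer cells, the resident macrophages, 0 were called at 48 h by limma (2 at an unadjusted p under 0.05) and 6 rose at 28 d, when their mean was 8.46 to 8.80 after sham surgery, 9.50 to 9.54 in ligated control and 9.04 to 9.36 in ligated JNK1Δhepa liver. The part of these cells in the Mmp12 values was not tested.

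The 9 measured bile duct markers, such as Krt7 and Sox9, had a mean of 5.30 to 5.39 in sham-operated and 6.13 to 6.64 in ligated control liver at 48 h, and 3 of the 9 rose (median difference 1.22), at a time when Mmp7 did not pass and its arrays overlapped. The mean was 5.36 to 5.78 in sham-operated and 5.86 to 7.69 in ligated control liver at 28 d, and again 3 of the 9 rose (median 0.837). The value of 7.69 came from control BDL 28 d replicate 3, the array with Mmp7 at 11.27 and Mmp2 at 9.24. Of 14 markers of stellate cells and myofibroblasts, 0 rose at 48 h by limma (1 at an unadjusted p under 0.05) and 2 at 28 d, a share near the 11.7% of all genes. Their mean was also highest on that array (8.56), and on the other two (6.69 and 7.10) it lay on both sides of the sham arrays (6.84 to 6.95). Of 6 mesothelial markers 1 rose at 48 h and 4 at 28 d, and their mean too was highest there (8.37, against 7.64 and 6.74). Without it Mmp7 still rose and Mmp2 and Mmp23 did not pass, as given above. The part of bile duct, stellate and mesothelial cells in these values was not tested.

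**Figure D3:**
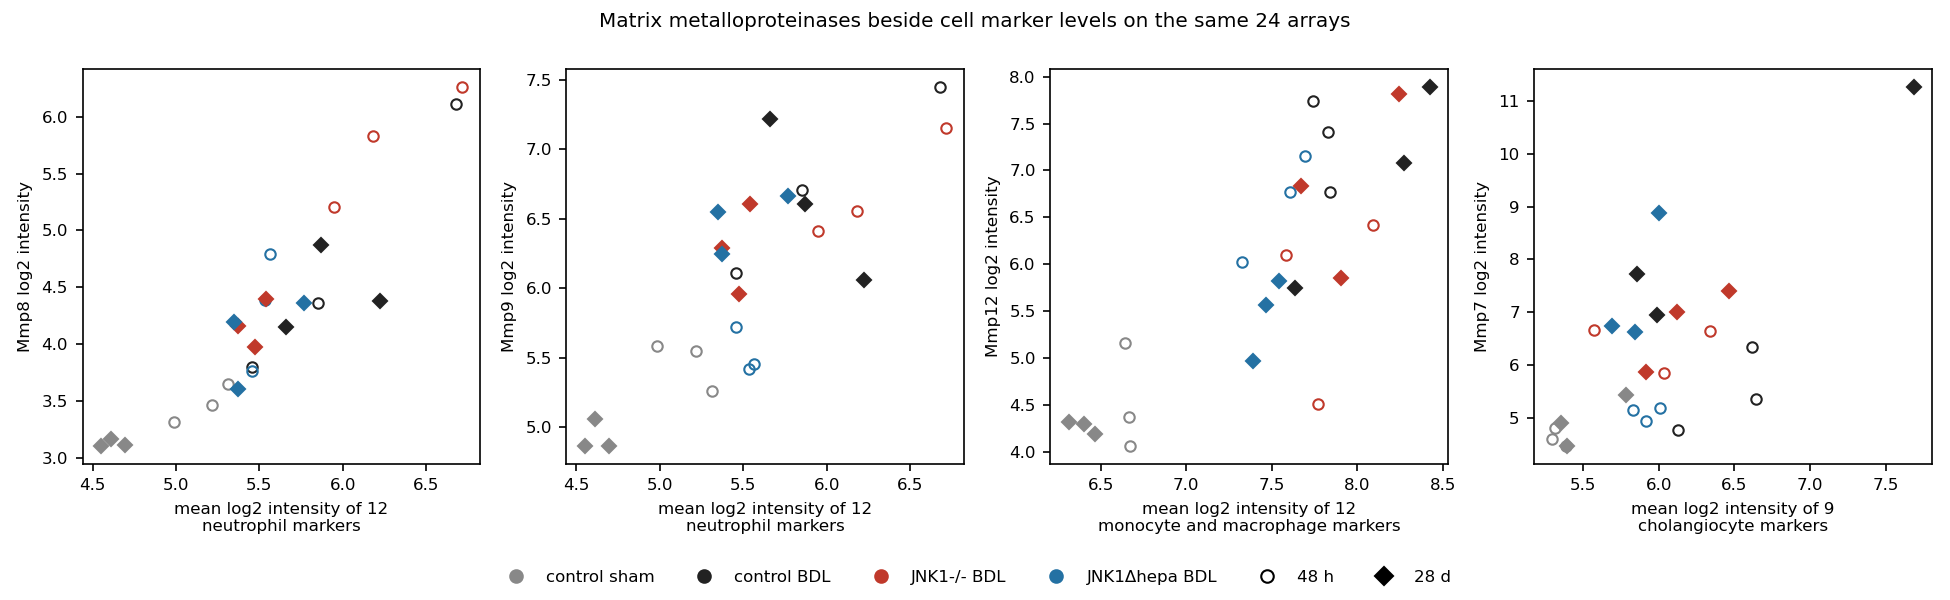
Log2 intensity of Mmp8 and Mmp9 against the mean of 12 neutrophil markers, of Mmp12 against the mean of 12 monocyte and macrophage markers, and of Mmp7 against the mean of 9 bile duct markers, one point per array (24 arrays; colours mark genotype and surgery, open circles 48 h, filled diamonds 28 d). Sham arrays lie to the left of all ligated arrays in the neutrophil and macrophage panels. In the bile duct panel they do so too, except control sham 28 d replicate 3 (5.78), which lies among the ligated arrays. JNK1Δhepa at 48 h lies low for Mmp9 among ligated livers, and a single control BDL 28 d array lies far to the upper right for Mmp7.

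Genes whose levels ran most closely with each member over the 24 arrays are given as a description, since arrays share groups and 3 arrays make up each group. Mmp8 ran with Clec4e, a receptor of myeloid cells (Pearson r = 0.966), and Retnlg, a neutrophil gene that is also in the marker list (0.941). Mmp2 ran with Timp2, the inhibitor that forms a complex with its proenzyme (0.945), and with Dcdc2a (0.932). Mmp7 ran with Glis3 (0.942) and the laminin chain Lama5 (0.917). For Mmp9 the closest genes were Hmox1, which encodes heme oxygenase (0.889), and Plaur, the urokinase receptor (0.888). Mmp14 was closest to Ttyh3 (0.945) and the lysosomal protease Lgmn (0.939), Mmp12 to Sprr1a (0.935) and D17H6S56E-5 (0.911), Mmp23 to Tmem119 and Casp12 (0.902 each), and Mmp13 to Tmem229a (0.829) and the collagen chaperone Serpinh1 (0.826). By ranks (Spearman rho) the values were 0.756 and 0.738 for Mmp23, 0.847 and 0.819 for Mmp2, and 0.817 to 0.947 for the others. Control BDL 28 d replicate 3 was the highest array for both Mmp23 and Mmp2.

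Mmp13, Mmp12, Mmp8 and Mmp7 lie in this order in a cluster on chromosome 9 that on GRCm38.p6 also holds Mmp1b, Mmp3, Mmp1a, Mmp10, Mmp27 and Mmp20, while Mmp2 is on chromosome 8, Mmp9 on 2, Mmp14 on 14 and Mmp23 on 4. The genes of the cluster were not tested against one another. Mmp12 rose by 2.78 at 48 h, and its neighbours Mmp13 and Mmp1b had differences of 0.43 and -0.05. At 28 d Mmp7 was at 3.71 and its neighbour Mmp20 at -0.06 (adjusted p = 0.764). Mmp3, Mmp1a and Mmp10, which lie between Mmp12 and Mmp8, each had a difference of 0.02 at 28 d, and none of these 3 passed at either time.

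**Figure D4:**
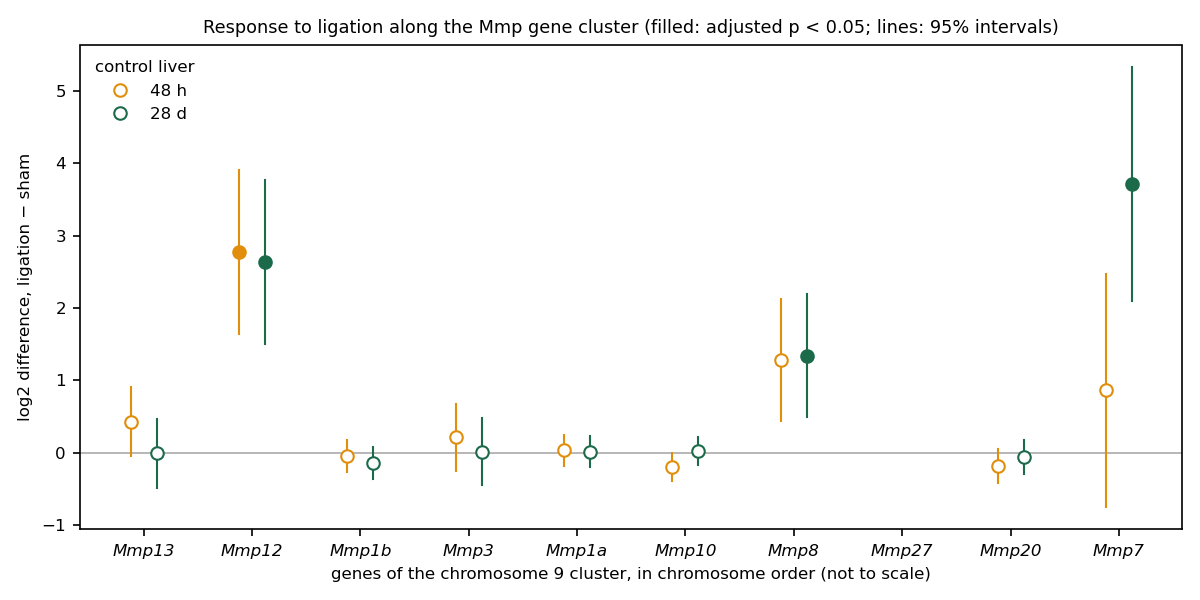
Log2 difference between ligated and sham-operated control liver (vertical axis) for the genes of the chromosome 9 cluster in chromosome order, at 48 h and 28 d; lines are 95% intervals of the fit over 24 arrays and filled points have a limma adjusted p under 0.05. Mmp12 is filled at both times and Mmp8 and Mmp7 at 28 d, while Mmp1b, Mmp3, Mmp1a, Mmp10 and Mmp20 lie near 0; Mmp27 has no point because no value was used for it.

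Of 15 remaining family members listed, 12 were measured, and 0 were called by limma at 48 h (0 at an unadjusted p under 0.05). Over all genes 5.61% were called higher and 3.83% lower at 48 h, and 11.7% and 11.5% at 28 d. At 28 d, 1 rose, Mmp11 (0.58, SE 0.17, adjusted p = 0.0164), also called stromelysin 3, and 1 fell, Mmp19 (-1.13, SE 0.28, adjusted p = 0.00619). The count of 2 became 1 without control BDL 28 d replicate 1 or 3 or control sham 28 d replicate 3, and 0 with the compared groups alone. Against control, limma called 0 of the 12 in either mutant at either time (0 to 2 at an unadjusted p under 0.05). The shares over all genes were 2.3% and 0.627% for JNK1-/- and 0% and 0.228% for JNK1Δhepa, at 48 h and 28 d. The median difference of the 12 at 28 d was 0.0116, beside 1.29 for the 8 genes above, which were picked with results of these arrays known.

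Inhibitors and the further gene lists are set beside the 5.61% of all genes called higher and 3.83% called lower at 48 h, and the 11.7% and 11.5% at 28 d. The mutant counts against control stand beside 2.3% and 0.627% for JNK1-/- and 0% and 0.228% for JNK1Δhepa, at 48 h and 28 d. Of 15 measured inhibitors, 2 rose at 48 h, while the median difference of the list was -0.0581 against -0.0288 over all genes. They were Timp1, the inducible inhibitor of metalloproteinases (2.90, SE 0.51, adjusted p = 0.0012), and Thbs1, a matricellular protein that binds several of them (2.32, SE 0.53, adjusted p = 0.00827). At 28 d, 4 rose and 2 fell, with a median of 0.443 against -0.0275. The lowest p were those of Thbs1 (3.29, SE 0.53, adjusted p = 0.000161), Timp1 (3.15, SE 0.51, adjusted p = 0.000173), the serine protease inhibitor Tfpi2 (-1.46, SE 0.30, adjusted p = 0.0014) and Timp4 (2.55, SE 0.61, adjusted p = 0.00458). The 48 h count fell to 1 without control BDL 48 h replicate 3, and the 28 d count of 6 fell to 2 with the compared groups alone. Against control, limma called 0 of the 15 in either mutant at either time (1 to 4 at an unadjusted p under 0.05), and Timp4 was lower in JNK1-/- than in JNK1Δhepa liver at 28 d (-2.66, SE 0.61, adjusted p = 0.0396).

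For 14 measured genes linked to activation of the proenzymes, the urokinase receptor Plaur among them, the median difference was 0.0205 at 48 h and 0.0881 at 28 d. At 48 h 3 of the 14 rose: Plaur (1.29, SE 0.28, adjusted p = 0.00639), Pcsk5, a furin-like convertase (0.62, SE 0.16, adjusted p = 0.0152), and Plau, or urokinase (0.69, SE 0.21, adjusted p = 0.0496). At 28 d, 5 rose and 1 fell, with Plaur (1.88, SE 0.28, adjusted p = 8.42e-05), Plat, the tissue plasminogen activator (1.57, SE 0.26, adjusted p = 0.000189), Plau (1.01, SE 0.21, adjusted p = 0.0018) and the lysosomal protease Ctsl (0.62, SE 0.14, adjusted p = 0.00334) leading. The 48 h count fell to 1 without control BDL 48 h replicate 3 or control sham 48 h replicate 1, and the 28 d count of 6 fell to 2 with the compared groups alone. In both mutants limma called 0 of the 14 against control at either time (1 to 4 at an unadjusted p under 0.05).

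Of 18 measured ADAM and ADAMTS relatives, which share the catalytic fold and had medians of 0.351 at 48 h and 0.499 at 28 d, 4 rose and 1 fell at 48 h, led by Adamts15 (0.74, SE 0.16, adjusted p = 0.00569), Adamts7 (0.97, SE 0.22, adjusted p = 0.00876) and Adamts4 (1.36, SE 0.34, adjusted p = 0.0145), with Bmp1, the procollagen C-proteinase, lower (-0.48, SE 0.13, adjusted p = 0.0187). At 28 d, 7 rose, led by Adamts1 (1.92, SE 0.38, adjusted p = 0.00113), Adam8 (1.24, SE 0.28, adjusted p = 0.00307), Adamts14 (0.53, SE 0.14, adjusted p = 0.00836) and Adam15 (0.70, SE 0.19, adjusted p = 0.0109). The 48 h count of 5 was 2 or 3 without control BDL 48 h replicate 3 or without any 1 of the control sham 48 h arrays. The 28 d count was 4 without control BDL 28 d replicate 3, 3 without control sham 28 d replicate 2, and 3 with the compared groups alone. Bmp1 was higher in JNK1-/- than in control liver at 48 h (0.50, SE 0.13, adjusted p = 0.0363), and Adamts7 was higher in JNK1-/- than in JNK1Δhepa liver at 48 h (0.87, SE 0.22, adjusted p = 0.045).

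Matrix substrates of the enzymes also rose in part, 3 of 21 at 48 h and 9 of 21 at 28 d, with medians of 0.325 and 0.682. The basement membrane protein Nid1 led at both times (2.37, SE 0.23, adjusted p = 6.97e-06, and 2.58, SE 0.23, adjusted p = 3.2e-07), followed by the laminin chain Lamc1 (0.91 and 0.84). At 28 d Col1a1, a chain of type I collagen (1.75, SE 0.39, adjusted p = 0.00287), and Col5a2, a chain of type V collagen (1.11, SE 0.26, adjusted p = 0.00365), rose. The 28 d count was 5 without control BDL 28 d replicate 3 and 2 with the compared groups alone, which gave 8 at 48 h. Among 23 inducers and receptors, with medians of 0.405 and 0.782, 6 rose at 48 h, led by Jun (2.43, SE 0.28, adjusted p = 3.19e-05) and Ets2 (1.45, SE 0.21, adjusted p = 0.00023), both transcription factors, with the collagen receptor Ddr1 (1.26, SE 0.28, adjusted p = 0.00729) and Fos (1.74, SE 0.41, adjusted p = 0.00913). At 28 d, 11 rose, led by Ddr1 (2.32, SE 0.28, adjusted p = 9.72e-06) and Fosl2 (1.98, SE 0.27, adjusted p = 2.78e-05). The 48 h count was 3 without control BDL 48 h replicate 3 and 11 with the 28 d sham arrays as the base, and the 28 d count was 7 without control BDL 28 d replicate 3 and 6 without control sham 28 d replicate 1. In both mutants, limma called 0 of the substrates and 0 of the inducers and receptors against control at either time (0 to 8 and 2 to 5 at an unadjusted p under 0.05).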

How the data were processed

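Liver RNA was measured on 24 arrays, 3 in each of 8 groups. The authors deposited log2 intensities, 1 per probe set and array, summarised with RMA according to the submitters' processing notes; of its version and of the probe sets' genome build nothing was known here. Per the labels' protocols, RNA with an integrity number over 8.0 was amplified from whole transcripts. Of 35556 probe sets, 21218 carried 1 gene symbol, 1881 several and 12457 none, and the brightest with 1 symbol stood for each of 18820 symbols. Groups were compared with limma 3.58.1 in R 4.3.3, with data.table (version 1.17.8) for reading, in 1 model of 8 group means over all 24 arrays (16 residual and 3.55 prior degrees of freedom). The 16 comparisons were adjusted separately by Benjamini-Hochberg over all symbols and called under 0.05. Precision is limited by the 3 arrays per group; differences between groups had a median SE of 0.129. The pooled variance understates the spread of control BDL 28 d (median SD 0.187, elsewhere 0.115 to 0.139). The script was tested on simulated data.

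The members, the gene lists and the alternatives were chosen with earlier results of these data known. All 8 members are named everywhere. Of each list up to 4 called genes with the smallest p are named per comparison, and for each member the 2 symbols with the highest Pearson r, leaving out predicted genes and receptor or antibody families. Promoter sequences come from RefSeq on GRCm38.p6, to which 18790 symbols were matched by gene number. Arrays with the same replicate number deviated together, with every correlation over 0.1, in 1 comparison, JNK1Δhepa against control at 28 d (0.16, 0.24 and 0.50). JNK1-/- against control at 28 d came near, at 0.078, 0.18 and 0.50. The labels do not say what a number marks. Alternatives were quantile normalization, centring on each array's median, a filter on dim probe sets, the mean of all probe sets of a symbol, only the compared groups in the fit, the replicate block, the 28 d sham arrays as the base, and leaving out each array in turn.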

Additional observations from a re-analysis of the deposited data

Results flagged for a closer look

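Mmp2 had ligation effects of opposite sign at each time in control liver, -0.31 at 48 h and 1.03 at 28 d, and at each time the sham and ligated arrays did not overlap. The change between the times was 1.34 (SE 0.57, limma unadjusted p = 0.0298, adjusted p = 0.275), so it did not pass, and over the alternatives it ranged from 0.614 to 1.79 with adjusted p from 0.0182 to 0.417. It was lowest without control BDL 28 d replicate 3 and passed only with the 28 d sham arrays as the base for both times (1.58).

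Mmp9 at 48 h differed between the mutants: against ligated control liver it was at -0.05 in JNK1-/- and at -1.23 in JNK1Δhepa liver, and the difference of these effects was 1.178 (SE 0.29, limma adjusted p = 0.032, all 3 JNK1-/- arrays above all 3 JNK1Δhepa arrays). The control arrays cancel in that difference. Its call ended when any array of these groups but JNK1-/- BDL 48 h replicate 3 was left out, and the neutrophil marker mean differed between these groups in the same direction (5.95 to 6.71 against 5.45 to 5.56); its part in the result was not tested.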

How the results depend on the processing

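Over all alternatives, 1534 values of member differences kept direction and side of the threshold, 31 newly passed, 22 no longer passed, 77 changed sign without being called in either setting, and 0 called differences reversed. The counts of members called at 48 h and 28 d after ligation stayed within 3 to 4 and 4 to 7. For the JNK1-/- against JNK1Δhepa comparison at 48 h, the 1 member called became 0 with only the compared groups in the fit and 0 with the replicate block, and ranged from 0 to 2 with arrays left out. With arrays left out, the counts ranged from 0 to 1 for JNK1-/- at 48 h, 0 to 1 for its change with time, 0 to 3 for JNK1Δhepa at 28 d and 1 to 2 for ligated JNK1Δhepa against sham at 48 h. For ligated JNK1-/- against sham at 28 d the count rose from 3 to 5 with the compared groups alone and to 5 with the replicate block; for ligated JNK1Δhepa against sham it rose from 3 to 6 and 6 at 28 d, and from 2 to 4 with the compared groups alone at 48 h. With the 28 d sham arrays as the base, the change with time was called in 3 members in place of 0, with no share of all genes given. In JNK1Δhepa against control at 28 d, where same-numbered arrays deviated together, the replicate block left 0 members called. The block lost Mmp7 (adjusted p = 0.0518) and Mmp23 (adjusted p = 0.124) for ligation at 28 d. Centring split the calls for JNK1Δhepa at 28 d into 225 up and 30 down, against 23 and 20. The filter on dim probe sets kept 10191 symbols and 5 members, so Mmp8, Mmp13 and Mmp23 have no value under it. The causes of these changes were not tested. The signal of those 3 genes is low, and small changes in them may not be measurable.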
